A study of Arabidopsis thaliana with 21 samples.

Results

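The 9 genes described here are transporters, pumps and other genes known from phloem companion cells, in sorted root cells of Arabidopsis thaliana. They were chosen by locus code, as SUC2 (AT1G22710), AHA3 (AT5G57350), FTIP1 (AT5G06850), NAKR1 (AT5G02600), SAPL (AT3G12730), PP2-A1 (AT4G19840), OPT3 (AT4G16370), SULTR2;1 (AT5G10180) and SULTR1;3 (AT1G22150), of 33602 genes in the count files. All 9 passed the filter on low counts, which kept 26074 genes. Fluorescent protoplasts from roots of seedlings aged 5 days were sorted, and RNA of 21 libraries was sequenced after PCR amplification of the cDNA. Protophloem sieve elements are the cells the series names as its target.

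The 6 lines differ in the reporter and carry no other treatment in the labels. The PEAR1 line (n = 4) was pPEAR1::3xYFP and the PEAR1-DBOX line (n = 2) was pPEAR1::DBOX-3xYFP, in which a destruction box, a degradation signal read at the end of mitosis, is added to the reporter. The CVP2-DBOX line (n = 4) was pCVP2::DBOX-3YFP. The CALS7 line (n = 4) was pCASL7::H2B-YFP pS32::erRFP, as spelled in the labels, and the NAC73 line (n = 4) was pNAC73::H2B-YFP pS32::erRFP. The line labelled NAC57 (n = 3) was pNAC57::2GFP pCALS7::H2B-RFP. All lines share the age, the protoplasting and the sort. Each promoter can be active in more than 1 cell type, and neither the colour of the sort gate nor the number of independent transformants is given in the labels. The labels do not say whether libraries of a line came from separate plantings, so p-values measure the spread between these libraries, which may be technical.

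Companion cells lie beside sieve elements and are joined to them by branched plasmodesmata. Sieve elements lose the nucleus as they mature, and companion cells supply them with proteins and load or retrieve solutes for transport. In the classical scheme a plasma membrane proton ATPase builds the proton gradient that a sucrose-proton symporter uses to move sucrose into the phloem, and in roots the same pair can take back sucrose that has leaked out.

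Library totals ran from 23513921 to 36198012 counts. Genes with a count numbered 29449 to 30620 in the PEAR1 libraries and 16916 to 19644 in the NAC73 libraries, and the 2 PEAR1-DBOX libraries stood apart from each other at 22747 (number 3) and 28322 (number 5). The 7 sieve element markers summed to 8690 to 12400 CPM (read counts scaled to library size by TMM) in CALS7 libraries and 15500 to 36700 in NAC73 libraries. They summed to 473 to 759 CPM in PEAR1, 290 and 1090 in PEAR1-DBOX, 104 to 197 in CVP2-DBOX and 228 to 449 in the line labelled NAC57, and up to 4 of the 7 had no count in a CVP2-DBOX library. Among the 7 is CALS7 itself, at a mean of 3890 CPM in the CALS7 line and 4200 CPM in NAC73. Its promoter names the CALS7 line, so its level and calls there are not independent of the choice of reporter. Endodermis markers summed to at most 26.0 CPM in any library, root cap markers to 52.7, epidermis and root hair markers to 104 and procambium markers to 139. Xylem markers reached 144 CPM and pericycle markers 321 CPM, both in PEAR1 libraries. The transcript of NAC057, whose promoter names the last line, was lowest there, at 21.1 ± 9.62 CPM (SD, n = 3), against 434 CPM in CALS7, so that line is called by its label throughout. In bulk samples, fewer cells of a type and less RNA per cell cannot be told apart.

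The promoters of SUC2 and OPT3 are shown because they were the 2 genes of the 9 for which every PEAR1-DBOX library lay above every library of the other 5 lines. Each window holds the 250 bases before and 50 bases after the annotated start, 5′ to 3′ on the gene's strand, from RefSeq's TAIR10.1 annotation. Capitals mark AAAG, the core of the sites that DOF transcription factors such as PEAR1 are known to bind, searched on both strands, so that CTTT is the same motif on the other strand. The windows are chr1:8033107-8033406 for SUC2 and chr4:9250294-9250593 for OPT3, both on the minus strand.
SUC2: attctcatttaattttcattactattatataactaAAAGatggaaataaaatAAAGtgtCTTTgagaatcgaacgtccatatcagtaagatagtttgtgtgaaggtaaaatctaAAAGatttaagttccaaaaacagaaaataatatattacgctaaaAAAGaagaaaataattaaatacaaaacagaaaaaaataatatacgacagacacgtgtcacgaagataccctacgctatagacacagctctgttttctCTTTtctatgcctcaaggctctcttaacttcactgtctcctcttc
OPT3: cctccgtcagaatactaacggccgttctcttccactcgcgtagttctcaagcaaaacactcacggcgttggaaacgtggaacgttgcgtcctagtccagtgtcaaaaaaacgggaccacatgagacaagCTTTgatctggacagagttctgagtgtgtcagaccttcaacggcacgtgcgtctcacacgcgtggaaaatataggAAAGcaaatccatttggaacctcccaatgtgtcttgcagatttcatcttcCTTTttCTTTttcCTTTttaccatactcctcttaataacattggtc
The SUC2 window holds the motif 6 times and the OPT3 window 5 times. Such a short motif is common, as 99.1% of 27443 promoter windows of protein-coding genes hold it, with a median of 5. At least as many copies were in 38.8% of windows for SUC2 and 55.4% for OPT3. SAPL and SULTR1;3 had the most copies of the 8 windows reported, at 10 each (4.1% of windows have at least as many), and PP2-A1 had the fewest, at 2.

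Among the 6 lines, 5 of the 9 genes differed (SUC2, AHA3, OPT3, SULTR2;1 and SULTR1;3; edgeR's quasi-likelihood test, Benjamini-Hochberg adjusted p under 0.05). Over all genes tested, 74.4% passed the same test, so that share is no mark of these genes. FTIP1, NAKR1, SAPL and PP2-A1 did not pass, with adjusted p between 0.0905 and 0.143. Per kilobase of exon, AHA3 was the highest of the 9, at 180 CPM per kb averaged over the 21 libraries, followed by SUC2 at 7.73 and OPT3 at 5.68 CPM per kb, and SULTR1;3 was the lowest at 0.0615 CPM per kb.

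**Figure D1:**
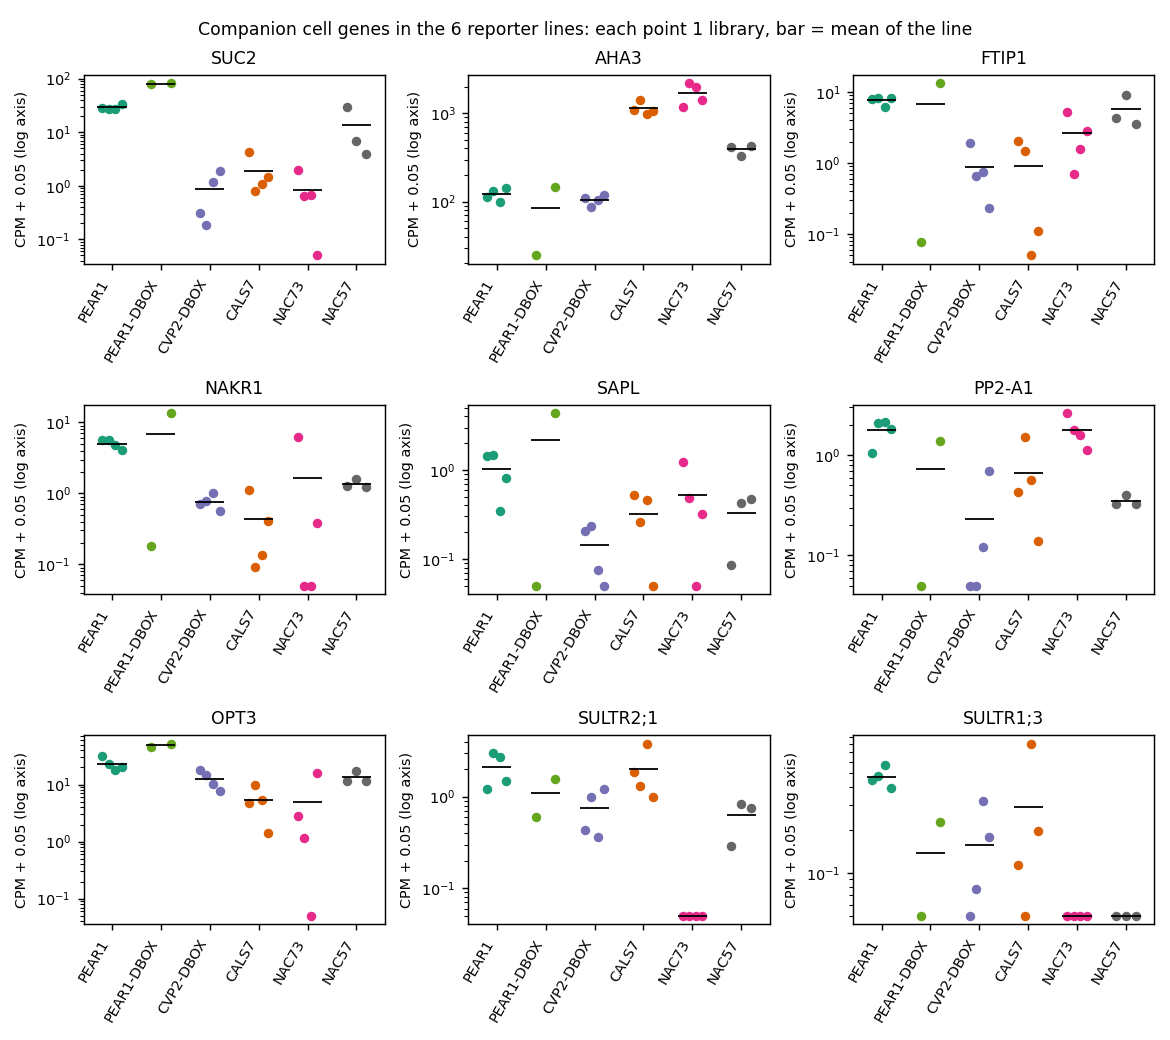
Level of each gene as CPM plus 0.05 on a log axis, in the 6 reporter lines. Points are libraries and bars are line means. SUC2 is highest in PEAR1-DBOX (78.4 and 82.5 CPM), AHA3 in NAC73 and CALS7 (992 CPM or more in every library of both), and SULTR2;1 has no count in any NAC73 library.

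SUC2, the sucrose-proton symporter that loads the phloem, lies at chr1:8030587-8033156 (TAIR10.1, minus strand, 4 exons). Its level was 28.8, 27.7, 27.5 and 33.0 CPM in the PEAR1 libraries and 78.4 and 82.5 CPM in the PEAR1-DBOX libraries. In CVP2-DBOX it was 0.258, 0.134, 1.12 and 1.83 CPM. These 3 lines did not overlap for SUC2, and the PEAR1-DBOX libraries were the highest of all 21. In CALS7 it was 4.26, 0.753, 1.05 and 1.41 CPM. In NAC73 it was 1.95, 0.583, 0.616 and 0 CPM. In the line labelled NAC57 it was 30.0, 6.88 and 3.87 CPM. Number 1 of that line reached the PEAR1 range, number 2 lay between PEAR1 and CALS7, and number 4 lay within the CALS7 range. The order of means was PEAR1-DBOX (80.5 ± 2.91, SD, n = 2), PEAR1 (29.2 ± 2.59, SD, n = 4), NAC57 (13.6 ± 14.3, SD, n = 3), CALS7 (1.87 ± 1.62, SD, n = 4), CVP2-DBOX (0.835 ± 0.795, SD, n = 4) and NAC73 (0.788 ± 0.826 CPM, SD, n = 4). From PEAR1 downwards, neighbours in this order overlapped.

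AHA3, a plasma membrane proton ATPase first described from companion cells, lies at chr5:23230874-23236682 (minus strand, 4 transcripts of 13 to 17 exons). Its level was 1180, 2200, 1980 and 1430 CPM in NAC73. It was 1090, 1410, 992 and 1060 CPM in CALS7. In the line labelled NAC57 it was 418, 326 and 425 CPM, below every CALS7 library and above every library of the lines that follow. PEAR1 had 112, 133, 98.4 and 144 CPM. CVP2-DBOX had 111, 86.0, 104 and 119 CPM, within or just below the PEAR1 range. The PEAR1-DBOX libraries split, with 24.5 CPM in number 3, the lowest of the 21, and 145 CPM in number 5. The order of means was NAC73 (1700 ± 475, SD, n = 4), CALS7 (1140 ± 185, SD, n = 4), NAC57 (390 ± 55.3, SD, n = 3), PEAR1 (122 ± 20.4, SD, n = 4), CVP2-DBOX (105 ± 14.2, SD, n = 4) and PEAR1-DBOX (84.7 ± 85.1 CPM, SD, n = 2). NAC73 overlapped CALS7, and the last 3 lines overlapped one another. The order of NAC73 and CALS7 depends on the scaling. TMM factors were 0.503 to 0.786 in NAC73 libraries and 0.895 to 1.149 in CALS7 libraries, and a lower factor raises the CPM. Before scaling, AHA3 had 21343 to 32116 counts in NAC73 libraries and 33710 to 36075 in CALS7 libraries. NAC73 and CALS7, the lines with the most AHA3, were those with the highest sums of sieve element markers. In CALS7, 7 of 7 markers were called higher than in PEAR1, the gene CALS7 among them. The line labelled NAC57 did not follow this order. Its AHA3 was above every PEAR1 library, but its markers summed to 228 to 449 CPM, below the 473 to 759 CPM of PEAR1. The part of sieve element cells in the AHA3 level was not tested.

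**Figure D2:**
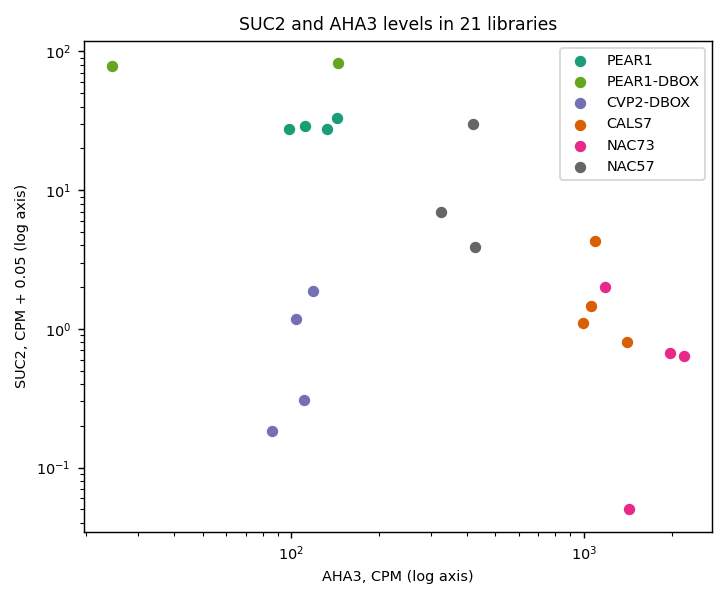
SUC2 (CPM plus 0.05, log axis) against AHA3 (CPM, log axis) in the 21 libraries, coloured by line. CALS7 and NAC73 libraries have AHA3 of at least 992 CPM and SUC2 of at most 4.26 CPM, while PEAR1 libraries have AHA3 of at most 144 CPM and SUC2 of at least 27.5 CPM.

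Across the 21 libraries SUC2 and AHA3 had a Pearson correlation of -0.56 in log2(CPM + 1), and AHA3 and OPT3 one of -0.77. These points share lines, libraries and depth, and the values describe the pattern without a test. The highest correlations between any 2 of the 9 genes were those of FTIP1 with NAKR1 and of NAKR1 with SAPL, both at 0.83, and that of SULTR2;1 with SULTR1;3, at 0.77. The genes with a mean of at least 20 CPM whose pattern over the 21 libraries was most like AHA3 were FH6 (r = 0.992), AT3G54040 (0.987) and MDAR1 (0.986). For SUC2 they were AT3G28600 (r = 0.928), NADP-ME2 (0.915) and ELF5A-3 (0.905), and for OPT3 they were ADR1-L1 (r = 0.922), AT1G13380 (0.918) and CPK28 (0.904).

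OPT3, an oligopeptide transporter family member that moves iron and copper in the phloem, lies at chr4:9247302-9250343 (minus strand, 5 exons). Its level was 31.3, 23.4, 18.1 and 20.3 CPM in PEAR1 and 45.0 and 52.5 CPM in PEAR1-DBOX. The 3 libraries of the line labelled NAC57 had 11.6, 17.3 and 11.5 CPM. In CVP2-DBOX it was 17.7, 14.5, 10.1 and 7.58 CPM. The 2 lines with the PEAR1 promoter did not overlap each other, and both lay above every library of those other two lines. CALS7 had 4.73, 9.74, 5.26 and 1.38 CPM. NAC73 was spread most widely, with 2.77, 1.09, 0 and 15.9 CPM. The difference among lines (adjusted p = 0.0343, edgeR) was lost when any 1 of 8 libraries was left out, with adjusted p up to 0.0928.

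FTIP1, an endoplasmic reticulum protein that binds the flowering signal FT and is needed for its passage into sieve elements, lies at chr5:2126944-2130509 (minus strand, 3 exons). It had 7.96, 8.21, 6.16 and 8.31 CPM in PEAR1. In PEAR1-DBOX it had 0.0265 CPM in number 3 and 13.3 CPM in number 5, on either side of the PEAR1 range. In the line labelled NAC57 it had 4.33, 9.17 and 3.53 CPM. The other 3 lines reached at most 5.24 CPM, a NAC73 library, and CALS7 and CVP2-DBOX at most 2.00 CPM.

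NAKR1, a heavy-metal-domain protein of the phloem that acts in sodium and potassium balance and in FT transport, lies at chr5:584162-586953 (minus strand). It shares 18 exon bases with a gene on the opposite strand, and it is not stated whether counting used strand. It had 5.61, 5.55, 4.80 and 4.04 CPM in PEAR1. PEAR1-DBOX again split, at 0.133 and 13.4 CPM. NAC73 had 6.11 CPM in number 1 and 0, 0 and 0.334 CPM in the others, and no CVP2-DBOX, CALS7 or NAC57 library was above 1.56 CPM.

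SAPL, a MYB-like transcription factor close to the phloem regulator APL, lies at chr3:4047012-4048704 (minus strand). It was low everywhere, at 1.37, 1.42, 0.298 and 0.769 CPM in PEAR1 and 0 and 4.28 CPM in PEAR1-DBOX. No other library but NAC73 1, at 1.18 CPM, exceeded 0.476 CPM.

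PP2-A1, a phloem lectin made in companion cells and found in the sap, lies at chr4:10773804-10775942 (plus strand). Of its 1514 exon bases, 284 are shared with a gene on the opposite strand, so its few counts are uncertain. It had 1.01, 2.03, 2.11 and 1.77 CPM in PEAR1 and 2.57, 1.75, 1.54 and 1.07 CPM in NAC73, which overlapped. PEAR1-DBOX had 0 and 1.35 CPM, CALS7 0.0883 to 1.46 CPM, the line labelled NAC57 0.277 to 0.347 CPM, and CVP2-DBOX 0 to 0.644 CPM.

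SULTR2;1, a low-affinity sulfate transporter of vascular cells, lies at chr5:3193017-3197136 (plus strand, 10 exons). It had 1.16, 2.93, 2.63 and 1.45 CPM in PEAR1 and 1.81, 1.25, 3.75 and 0.942 CPM in CALS7. It had no count in any of the 4 NAC73 libraries, and every library of the other 5 lines had counts. PEAR1-DBOX had 0.557 and 1.52 CPM, CVP2-DBOX 0.316 to 1.16 CPM and the line labelled NAC57 0.243 to 0.781 CPM.

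SULTR1;3, a high-affinity sulfate transporter of the phloem, lies at chr1:7817609-7821576 (plus strand). PEAR1 was the one line with counts in every library, at 0.396, 0.425, 0.522 and 0.342 CPM. SULTR1;3 passed the filter on low counts through these libraries, so its calls among the 6 lines and against PEAR1 are not independent of that filter. CALS7 had 0.0635, 0, 0.755 and 0.147 CPM, CVP2-DBOX 0 to 0.267 CPM and PEAR1-DBOX 0 and 0.176 CPM. None of the 4 NAC73 and 3 NAC57 libraries had a count, where 3 counts over the line would be 0.0466 and 0.0302 CPM. Such limits take in counting error alone, because reads amplified by PCR were not tagged by molecule. The difference among lines (adjusted p = 0.0325, edgeR) was lost without any 1 of 6 libraries, with adjusted p up to 0.0585. No exonic 50-base stretch of any of the 9 genes was found elsewhere in the nuclear genome.

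Sorting from the same promoter with and without the destruction box left 0 of the 9 genes called in PEAR1-DBOX against PEAR1 (edgeR), with 1.4% of all genes called higher and 0.886% called lower. None had an unadjusted p under 0.05, the lowest being 0.144, and DESeq2 also called 0. The fitted change of SUC2 was 2.75-fold (log2 1.46 ± 0.95 SE, adjusted p = 0.49) and that of OPT3 was log2 1.07 ± 1.01 (adjusted p = 0.659). Libraries did not overlap for 3 genes, SUC2, OPT3 and SULTR1;3, against 41.2% of all genes. With only these 2 lines in the fit, SUC2 (adjusted p = 0.00668) and OPT3 (adjusted p = 0.0343) were called higher. AHA3 turned with the library: its change of log2 -0.52 ± 0.43 became 0.25 without PEAR1-DBOX 3, and was -2.31 and called (adjusted p = 0.00105) without PEAR1-DBOX 5. The median change of the 9 genes was -0.20, beside -0.09 for all genes.

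**Figure D3:**
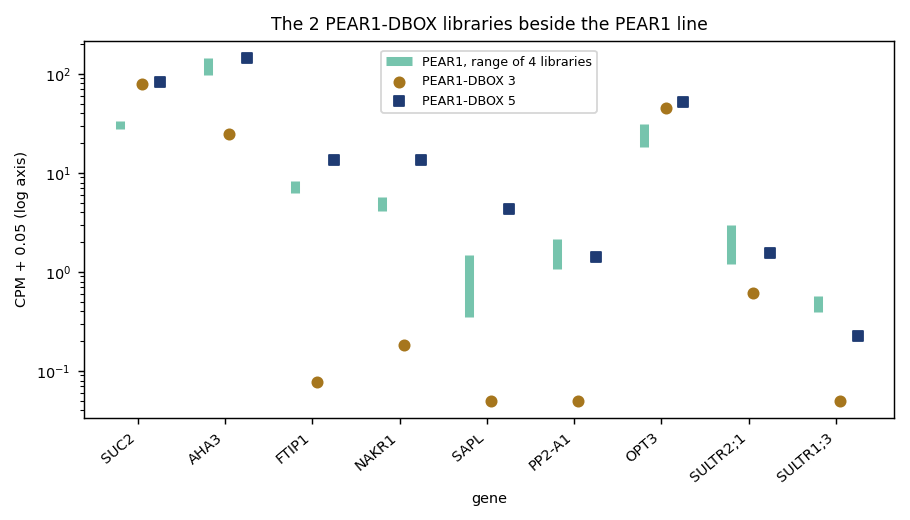
CPM plus 0.05 on a log axis for the 9 genes in the 2 PEAR1-DBOX libraries (points) beside the range of the 4 PEAR1 libraries (bars). SUC2 and OPT3 are above the bar in both libraries, while number 3 is far below it for FTIP1 (0.0265 CPM) and NAKR1 (0.133 CPM), where number 5 is above it.

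In CVP2-DBOX cells, SUC2 fell 34.8-fold against PEAR1 (log2 -5.12 ± 0.97, adjusted p = 0.000715, edgeR). The 2 lines differ in both the promoter and the destruction box, which cannot be told apart in this comparison. Without CVP2-DBOX 4 the fall was 57.3-fold (adjusted p = 0.00123). It was the 1 of 9 genes called, all genes giving 12.2% higher and 15.2% lower. The other 8 were also below PEAR1 in fitted value, by log2 -0.21 ± 0.34 for AHA3 (adjusted p = 0.697) to log2 -3.35 ± 1.49 for SAPL (adjusted p = 0.108). FTIP1 (log2 -3.17 ± 1.28), NAKR1 (log2 -2.80 ± 1.36) and PP2-A1 (log2 -3.24 ± 1.29) also missed the threshold, with adjusted p of 0.0766, 0.144 and 0.0707. Libraries did not overlap for 7 of the 9, beside 50.4% of all genes, and the median change was -2.80 beside -0.20. The count of called genes rested on the fit: DESeq2 called 5, a fit of these 2 lines alone called 7, all lower, and edgeR called 2 without CVP2-DBOX 4 or CALS7 3 and 3 without either PEAR1-DBOX library. Called lower in the same comparison were 2 of 3 pericycle markers, 3 of 7 xylem markers, 2 of 5 epidermis and root hair markers and 6 of 7 sieve element markers, and 1 of 4 procambium markers was called higher. The pericycle markers summed to 160 to 321 CPM in PEAR1 libraries and 3.30 to 8.72 CPM in CVP2-DBOX libraries, and the xylem markers to 18.7 to 144 CPM and 5.49 to 11.1 CPM. The epidermis and root hair markers summed to 5.88 to 48.6 CPM and 2.17 to 7.94 CPM, which overlapped. Their part in the change of SUC2 was not tested.

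Between the 2 lines with a destruction box, SUC2 was 95.8-fold lower in CVP2-DBOX than in PEAR1-DBOX (log2 -6.58 ± 1.08, adjusted p = 0.000492, edgeR). Without CVP2-DBOX 4 it was 158-fold lower (adjusted p = 0.00105). It was the 1 gene called, with 3.87% of all genes higher and 8.14% lower. OPT3 (log2 -1.97 ± 1.00, adjusted p = 0.256) did not overlap either, and was called with those 2 lines alone (adjusted p = 0.00724). SUC2 and OPT3 were the 2 of the 9 whose libraries did not overlap, beside 37.3% of all genes. AHA3 had a fitted change of 0.31, which was -0.46 without PEAR1-DBOX 3 and was 2.10 and called (adjusted p = 0.00161) without PEAR1-DBOX 5. The count of called genes was 2 without either PEAR1-DBOX library, and the median over the 9 genes was -1.97, beside -0.01 for all genes. In the same comparison 6 of 7 sieve element markers and 2 of 7 xylem markers were lower, 0 of 3 pericycle markers were called, and 1 of 4 procambium markers was higher and 1 lower. The pericycle markers summed to 13.5 and 81.6 CPM in PEAR1-DBOX, above the 3.30 to 8.72 CPM of CVP2-DBOX, and the sieve element markers to 290 and 1090 CPM against 104 to 197 CPM. Their part in the SUC2 difference was not tested.

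CALS7 cells differed from PEAR1 cells in opposite directions for the pump and the symporter. AHA3 rose 9.35-fold (log2 3.23 ± 0.37, adjusted p = 2.41e-06) and SUC2 fell 15.6-fold (log2 -3.96 ± 0.92, adjusted p = 0.00248, edgeR). Without CALS7 1 the fall of SUC2 was 27.1-fold (adjusted p = 0.00215). All genes gave 14.7% higher and 23.1% lower, against 1 of 9 each way here. NAKR1 (log2 -3.66 ± 1.42, adjusted p = 0.0502), FTIP1 (log2 -3.14 ± 1.29, adjusted p = 0.0631) and OPT3 (log2 -2.14 ± 0.89, adjusted p = 0.0671) lay near the threshold, and 4 of the 9 genes were called by DESeq2, by the 2 lines alone, or without any 1 of NAC73 2, 3 and 4 or of either PEAR1-DBOX library. Libraries did not overlap for 5 of the 9, beside 49.2% of all genes, and the median change was -1.80 beside -0.32. In the same comparison 7 of 7 sieve element markers were higher, the gene CALS7 among them. Lower were 1 of 3 pericycle and 2 of 7 xylem markers, and 1 of 4 procambium markers was higher and 1 lower. The pericycle markers summed to 160 to 321 CPM in PEAR1 and 1.05 to 3.97 CPM in CALS7. In PEAR1-DBOX, the line with the highest SUC2, they summed to 13.5 and 81.6 CPM, below every PEAR1 library. Their part in the change of SUC2 was not tested. Against CVP2-DBOX, AHA3 was 10.8-fold higher in CALS7 (log2 3.44 ± 0.37, adjusted p = 6.81e-07, edgeR) and was the 1 gene called, beside 16.9% of all genes higher and 23.7% lower. SUC2 was low in both lines (log2 1.16 ± 0.85, adjusted p = 0.317). The count was 2 without CVP2-DBOX 4, and the median over the 9 genes in that comparison was 1.17 beside 0.11. There 7 of 7 sieve element markers were higher in the CALS7 line, the gene CALS7 among them. So were 3 of 7 xylem markers, 3 of 5 epidermis and root hair markers and 1 of 4 procambium markers. The median change of the xylem markers was -0.22. The epidermis and root hair markers summed to 1.78, 104, 2.00 and 19.8 CPM in CALS7 libraries 1 to 4 and 2.17 to 7.94 CPM in CVP2-DBOX, which overlapped. The part of these markers in the AHA3 difference was not tested. These comparisons share the PEAR1 or the CALS7 libraries and are not independent of each other.

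NAC73 cells against CALS7 cells lacked counts of both sulfate transporters. SULTR2;1 was at least 41.6-fold lower, with the floor at 3 counts over the NAC73 line (adjusted p = 0.000116, edgeR). SULTR1;3 was at least 5.17-fold lower (adjusted p = 0.0465), but CALS7 3 held 26 of the 33 CALS7 counts, and without it the bound was 1.51-fold. The libraries overlapped, since CALS7 2 had no count either, and the call was lost without any 1 of 13 libraries, with no filter on low counts (adjusted p = 0.0531) and without NAC73 2 and 3 (adjusted p = 0.125). All genes gave 15.6% higher and 20.3% lower, against 0 and 2 of 9. AHA3 was 1.49-fold higher in fitted value (log2 0.57 ± 0.34, adjusted p = 0.193, edgeR), and log2 0.58 without either PEAR1-DBOX library. With each library left out in turn, the change ranged from log2 0.42 to 0.72, with adjusted p up to 0.372. Over all the edgeR and DESeq2 alternatives the adjusted p reached 0.73. This change depends on the scaling, as the TMM factors were lower in NAC73 than in CALS7 libraries. The median over the 9 genes was 0.57 beside -0.12. NAC73 libraries had fewer genes with a count than any other line, and its part in the counts of 0 was not tested. Of the markers, 2 of 7 sieve element markers were higher in NAC73, 1 of 7 xylem and 1 of 5 epidermis and root hair markers were lower, and 1 of 4 procambium markers was higher and 1 lower. The sieve element markers summed to 15500 to 36700 CPM in NAC73 and 8690 to 12400 CPM in CALS7, and their part was not tested either.

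In the line labelled NAC57 against CALS7, SUC2 was 7.25-fold higher (log2 2.86 ± 0.91, adjusted p = 0.0169) and AHA3 was 2.92-fold lower (log2 -1.55 ± 0.39, adjusted p = 0.00387, edgeR). The SUC2 call rested on NAC57 1: without it the change was log2 1.52 (adjusted p = 0.174) and 1 gene was called, while without CALS7 1 it was log2 3.65 (adjusted p = 0.00965). SULTR1;3 was at least 8.00-fold lower (adjusted p = 0.0312), which was lost without CALS7 3 or any 1 library of the line. The bound was 2.33-fold without CALS7 3, 5.22-fold without NAC57 2 and 5.11-fold without NAC57 4. That made 1 of 9 higher and 2 of 9 lower, where all genes gave 24.1% and 25.5%. FTIP1 had log2 2.71 ± 1.31 (adjusted p = 0.0916) and SULTR2;1 log2 -1.75 ± 0.75 (adjusted p = 0.0646). SULTR2;1 was called by DESeq2, at log2 -2.21 (adjusted p = 0.0041), and by edgeR with median-of-ratios scaling, at log2 -2.20. That scaling moved the median of all genes by -0.41, from -0.16 to -0.58, and the share of calls that were higher from 48.6% to 33.1%. AHA3 stayed lower under it, at log2 -1.96. The median of the 9 genes was 0.02. In the same comparison 7 of 7 sieve element markers were lower, the gene CALS7 among them (228 to 449 CPM in sum, against 8690 to 12400). So were 3 of 7 xylem markers and 1 each of the epidermis and root hair, procambium and root cap markers. The part of these in the AHA3 difference was not tested.

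Against PEAR1, AHA3 was 3.20-fold higher in the line labelled NAC57 (log2 1.68 ± 0.37, adjusted p = 0.00298, edgeR), and SULTR1;3 was at least 13.9-fold lower (adjusted p = 0.0281). SULTR1;3 had passed the filter on low counts through PEAR1, the higher line here, so this call is not independent of the filter. The SULTR1;3 call was lost without any 1 of the 3 libraries of the line labelled NAC57. The bound was 9.10-fold without NAC57 2 and 8.90-fold without NAC57 4. All genes gave 13.8% higher and 20.9% lower, against 1 of 9 each way. SUC2 had log2 -1.11 ± 0.90 (adjusted p = 0.35), with NAC57 1 inside the PEAR1 range, and without that library log2 -2.44 (adjusted p = 0.0966). Libraries did not overlap for 6 of the 9, beside 63.3% of all genes, and the median change was -1.78 beside -0.52. With median-of-ratios scaling the median of all genes moved by -0.31 and the share of calls that were higher went from 39.9% to 19.9%, and AHA3 stayed higher, at log2 1.37. In the comparison of the lines with and without the destruction box the same scaling moved that share from 61.3% to 45.8%. Pericycle markers summed to 31.2 to 149 CPM in the line labelled NAC57, against 1.05 to 3.97 CPM in CALS7 (1 of 3 called higher) and 160 to 321 CPM in PEAR1 (0 of 3 called). Within the line labelled NAC57, numbers 1, 2 and 4 had pericycle sums of 31.2, 149 and 127 CPM. Their SUC2 levels were 30.0, 6.88 and 3.87 CPM, so the library with the most SUC2 had the lowest sum. The part of pericycle cells in the SUC2 levels was not tested. Against PEAR1, 3 of 7 sieve element, 5 of 7 xylem and 1 of 5 epidermis and root hair markers were lower in the line labelled NAC57 and 1 of 4 procambium markers was higher.

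**Figure D4:**
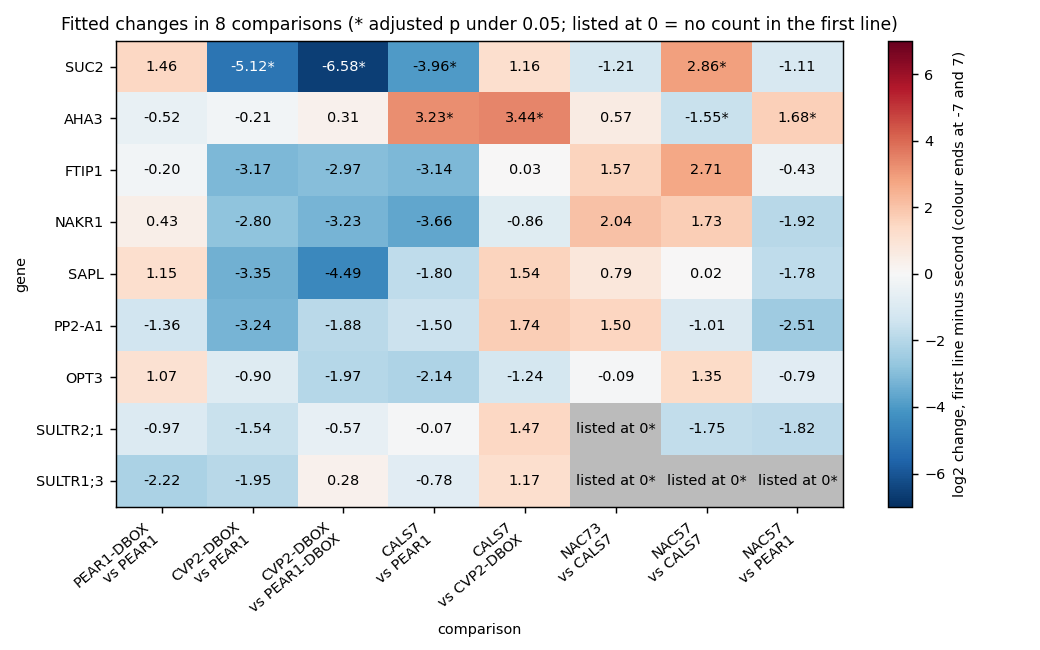
Fitted log2 changes (first line minus second) of the 9 genes in the 8 comparisons, with an asterisk where the adjusted p was under 0.05. SUC2 and AHA3 carry 8 of the 12 asterisks, and SULTR2;1 and SULTR1;3 the rest, in grey cells marked as listed at 0 because the first line had no count.

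The relatives of the 9 genes are counted beside the share of all genes called the same way, and with lists this short a share near it is no result about the list. Of 6 tested among 8 other sucrose transporters, 2 were lower and 0 higher in CVP2-DBOX against PEAR1 (beside 15.2% and 12.2% of all genes; median log2 -0.88 beside -0.20). SUC1, a symporter known from pollen and roots, averaged 143 CPM in PEAR1 and 2.93 CPM in CVP2-DBOX (log2 -5.60 ± 1.08, adjusted p = 0.000789), and SUC4, a vacuolar sucrose transporter, was 2.25-fold lower (adjusted p = 0.000197, edgeR). In CALS7 against PEAR1, 2 were lower and 1 higher (beside 23.1% and 14.7% of all genes): SUC1 (log2 -4.06 ± 1.00) and SUC4 (log2 -0.96 ± 0.19) were lower, and SUC3, a transporter known from sieve elements, was 2.11-fold higher (log2 1.08 ± 0.15, adjusted p = 2.24e-05). SUC3 averaged 104 CPM in CALS7 and 144 CPM in NAC73, against 49.4 CPM in PEAR1.

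Of 9 tested proton ATPase relatives of AHA3, 1 was higher and 2 were lower in CALS7 against PEAR1 (beside 14.7% and 23.1% of all genes; median -0.15 beside -0.32). AHA1 (log2 -2.61 ± 0.55, adjusted p = 0.00125) and AHA11 (log2 -1.98 ± 0.38, adjusted p = 0.000507) were lower, while AHA9 was 2.78-fold higher from a low level. AHA1 and AHA2 are known as the pumps expressed most broadly in the plant. In CVP2-DBOX against PEAR1, 3 of the 9 were lower (AHA1, AHA2 and AHA11) and 0 higher, beside 15.2% and 12.2% of all genes, where AHA3 was not called. In the line labelled NAC57 against CALS7, AHA1 and AHA11 were higher, by log2 1.76 ± 0.56 and 1.76 ± 0.40, where AHA3 was lower. They were 2 of the 9, and 24.1% of all genes were higher there.

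Among 10 relatives of OPT3, counting other oligopeptide and metal-chelate transporters, 3 were lower and 0 higher in CVP2-DBOX against PEAR1 (beside 15.2% and 12.2% of all genes; median -1.50 beside -0.20). They were OPT2 (log2 -3.93 ± 1.19), OPT4 (log2 -2.48 ± 0.52) and OPT6 (log2 -4.02 ± 1.11), and OPT2, OPT4 and OPT6 were also lower in CVP2-DBOX than in PEAR1-DBOX, where 8.14% of all genes were. OPT3 was not called in either. Of 10 sulfate transporter relatives, 3 were lower and 0 higher in NAC73 against CALS7 (beside 20.3% and 15.6% of all genes; median -2.0 beside -0.12). SULTR1;1, SULTR3;1 and SULTR3;5 had no count in NAC73, as was so for SULTR2;1 and SULTR1;3, and SULTR3;5 was not called (adjusted p = 0.0544, edgeR). Against CALS7, 4 of the 10 were lower and 0 higher in the line labelled NAC57, beside 25.5% and 24.1% of all genes. Their median change was -3.22, or -2.84 with genes without a count at their bound, beside -0.16. SULTR3;4, known as a phosphate distribution transporter in rice and Arabidopsis, was lower in CVP2-DBOX (log2 -3.29 ± 0.65) and in CALS7 (log2 -3.18 ± 0.65) than in PEAR1.

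Of 13 tested genes among 14 other phloem transport and companion cell genes, 3 were higher and 2 lower in CALS7 against PEAR1 (beside 14.7% and 23.1% of all genes; median 0.17 beside -0.32). APL, a regulator of phloem identity, was 3.64-fold higher (log2 1.87 ± 0.22, adjusted p = 2.45e-06), QKY, a plasmodesmal C2-domain protein related to FTIP1, was 3.56-fold higher (log2 1.83 ± 0.20, adjusted p = 1.25e-06), and the amino acid permease AAP3 was 5.36-fold higher (adjusted p = 0.000102, edgeR). NPF2.9, a nitrate transporter of root companion cells, was 42.2-fold lower (log2 -5.40 ± 0.88, adjusted p = 0.000127). It averaged 95.3 CPM in PEAR1, 39.1 CPM in the line labelled NAC57, 22.5 CPM in PEAR1-DBOX and 2.27 to 3.11 CPM in CALS7, CVP2-DBOX and NAC73. APL averaged 1310 CPM in CALS7, 2650 CPM in NAC73 and 209 CPM in PEAR1-DBOX. RTM1 had no count in any of the 21 libraries.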

How the data were processed

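The deposited files hold raw read counts per gene, 1 file for each of the 21 libraries. The submitters' processing notes name Bowtie2, featureCounts, edgeR and TAIR10, and versions and strand setting are not stated there. The authors did not normalise the deposited counts.

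All libraries entered 1 edgeR 4.0.16 model (R 4.3.3) with 1 term for each line, scaled by TMM and filtered with filterByExpr, with robust quasi-likelihood fits and Benjamini-Hochberg adjustment over 26074 genes at 0.05. The common dispersion was 0.377. A test over all lines and 8 contrasts of 2 lines were taken from it, and the code was tested on simulated data. CPM are TMM-scaled, and levels between genes are per kilobase of exon. The TMM factors of the NAC73 libraries, 0.503 to 0.786, were below those of every other library, which raises their CPM. Changes are log2 with the SE of the model. A fold against a line without counts is a bound at 3 counts over the line.

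The 9 genes and the other lists were chosen with earlier results of these data known. Beyond the 9, a list gene was named if called, up to 4 per list by adjusted p, with its values in the other lines, and RTM1 was named after its values were seen. Genes most alike were the 3 with the highest correlation in log2(CPM + 1) and a mean of at least 20 CPM. Gene models, promoters and uniqueness came from RefSeq TAIR10.1, and 32835 locus codes were in it. The promoter window of 1 of the 9 genes is not reported here. No protein sequences were used here. The alternatives were median-of-ratios scaling, no filter, DESeq2 1.42.0, the replicate number as a block, the 2 lines alone and each library left out in turn. Leaving out PEAR1 2 and 4 or NAC73 2 and 3 was added after seeing the data. Leaving out 1 PEAR1-DBOX library assumes that the lone one varies like the other lines. Figures used matplotlib 3.10.9.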

Additional observations from a re-analysis of the deposited data

Results flagged for a closer look

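In 34 groups of 4 libraries the highest or lowest value was compared with the rest, and 3 stood apart by Dixon's criterion, where chance flags about 1 in 20 groups. FTIP1 was 6.16 CPM in PEAR1 3, against 7.96 to 8.31 CPM in the other PEAR1 libraries. NAKR1 was 6.11 CPM in NAC73 1, against 0 to 0.334 CPM in the other NAC73 libraries. PP2-A1 was 0.644 CPM in CVP2-DBOX 4, against 0 to 0.0728 CPM in the other CVP2-DBOX libraries. No cause was tested for these values.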

How the results depend on the processing

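The number of the 9 genes called changed with the fit more than the direction of the called ones. Of the 12 called changes, 12 kept their call and direction with median-of-ratios scaling and with DESeq2, 11 with no filter and 10 with only the 2 lines compared, where SULTR1;3 had no value in the other 2. Among the 6 lines, the 5 genes became 3 without PEAR1 2 and 4. In PEAR1-DBOX against PEAR1, 0 became 2 with the 2 lines alone. In CVP2-DBOX against PEAR1, 1 became 7 with the 2 lines alone, 5 with DESeq2 and 2 without NAC73 2 and 3. In CVP2-DBOX against PEAR1-DBOX, 1 became 2 under these same 3 settings. In CALS7 against PEAR1, 2 became 4 under all 3. In CALS7 against CVP2-DBOX, 1 became 2 with DESeq2. In NAC73 against CALS7, 2 became 1 with no filter, the 2 lines alone, without PEAR1 2 and 4 and without NAC73 2 and 3. In NAC57 against PEAR1, 2 became 6 with the 2 lines alone, 4 with DESeq2 and 1 without PEAR1 2 and 4. The cause was not tested.

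Leaving out 1 library at a time, the counts ranged from 3 to 7 among the 6 lines, 0 to 1 (PEAR1-DBOX against PEAR1), 1 to 3 (CVP2-DBOX against PEAR1), 1 to 2 (CVP2-DBOX against PEAR1-DBOX), 2 to 4 (CALS7 against PEAR1), 1 to 2 (CALS7 against CVP2-DBOX), 1 to 3 (NAC73 against CALS7), 1 to 4 (NAC57 against CALS7) and 1 to 2 (NAC57 against PEAR1). The lowest count among the 6 lines came without PEAR1 1 or without PEAR1 2, and the 1 for NAC57 against CALS7 came without NAC57 1. Without PEAR1-DBOX 3, the change of AHA3 was 0.25 against PEAR1 and -0.46 in CVP2-DBOX against PEAR1-DBOX. Without PEAR1-DBOX 5 they were -2.31 and 2.10. The change of SAPL in CVP2-DBOX against PEAR1-DBOX was -5.49 without PEAR1-DBOX 3 and 4.59 without PEAR1-DBOX 5. The 4.59 is no measured change, because PEAR1-DBOX 3 had no SAPL count and the 4 CVP2-DBOX libraries had 14 in total. In PEAR1-DBOX 3 a level of 3 counts would be 0.0795 CPM, beside the CVP2-DBOX mean of 0.0915 CPM. PEAR1-DBOX had 2 libraries, and SAPL, PP2-A1 and the sulfate transporters were mostly under 3 CPM, and the part of depth and number in the calls was not tested. Of 72 changes, 35 were called in no fit, and 16 of these had another sign in some alternative.

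Replicate numbers did not pair the libraries: same-numbered libraries of different lines had deviations correlated at -0.18 to 0.20 (median -0.03, 40 pairs), and 3 of 21 libraries correlated best with one of their own number. With the replicate number as a block, the counts became 2 for CVP2-DBOX against PEAR1 and 4 for CALS7 against PEAR1. PEAR1-DBOX 5 is the only library of its number, so the block takes it up. Contrasts with PEAR1-DBOX then rest on PEAR1-DBOX 3, and the block is no separate check of them. AHA3 changed by -2.25 against PEAR1 and by 2.05 in CVP2-DBOX against PEAR1-DBOX, beside -2.31 and 2.10 without PEAR1-DBOX 5. SAPL in CVP2-DBOX against PEAR1-DBOX had a change of 3.41 under the block, which is no measured change, as PEAR1-DBOX 3 had no SAPL count. Of the 12 called changes, 10 kept their call under the block, and SULTR1;3 was not called in NAC73 against CALS7 (adjusted p = 0.0628, edgeR) or in NAC57 against CALS7 (adjusted p = 0.0698), while AHA3 was called in the former (adjusted p = 0.0487) and FTIP1 in the latter (adjusted p = 0.0365). Among the 6 lines, OPT3 was not called (adjusted p = 0.123), and FTIP1 (0.0119), NAKR1 (0.0361) and PP2-A1 (0.0388) were.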
